A study of Mus musculus with 11 samples.

Results

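The proteasome genes examined here encode the subunits and activators of the protein complex that degrades ubiquitin-tagged proteins. They were taken as the genes with a single platform annotation symbol of the form Psma, Psmc or Psmd with a number, Psmb1 to Psmb7, or Psme1 to Psme4. 38 of the 18193 named genes on the array met that rule, and 37 of them were bright enough to be tested. Where a gene had several probe sets, the one brightest on average across the 11 arrays stands for it. Total RNA came from keratinocytes of the back skin of K5-myrAkt(L84) transgenic mice, in which the keratin 5 promoter drives a membrane-bound, active form of the kinase Akt in basal keratinocytes. The cells were labelled with an antibody against CD34, a surface marker of hair follicle bulge stem cells, and separated on magnetic beads into 5 CD34+ and 6 CD34- samples. Both fractions carry the transgene, and no fraction without it was analysed here, so the comparison is between 2 fractions of the same skin and not a measure of Akt. The labels give no age, sex or pooling of animals, and the CD34- samples are labelled as follicle stem cells too, whereas the design text calls them only CD34- cells.

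The proteasome is a barrel of stacked rings with caps. The core holds outer alpha rings, which form the gate, and inner beta rings, in which Psmb5, Psmb6 and Psmb7 encode the subunits that cut peptides. The cap has a base, whose Psmc ATPases unfold the substrate, and a lid, whose Psmd14 subunit removes ubiquitin. The Psme genes encode activators that can replace the cap. In epidermis, as in other tissues, the core subunits are expressed in nearly every cell, and immune cells add the alternative catalytic subunits Psmb8, Psmb9 and Psmb10.

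The 2 fractions were separate in Cd34 itself. Its log2 signal was 12.92, 10.54, 10.59, 12.58 and 12.55 on CD34+ arrays 1 to 5 and no more than 5.501 on any CD34- array, and every CD34+ array lay above every CD34- array. Of the bulge markers 6 of 6 tested were called higher in CD34+ cells, a count that includes Cd34 itself, on which the cells were sorted. Krt5 and Krt14, the basal keratins, were not called, and 2 of 5 basal keratinocyte markers were lower. None of 5 melanocyte markers was called by limma, but CD34- arrays 1 and 2 stood apart. Dct read 13.38 and 13.58 there, against 10.88 to 11.67 on the other CD34- arrays and 11.06 to 11.83 on CD34+ arrays. Tyr, Tyrp1 and Pmel were also highest on these 2 arrays, while Mlana on array 2 lay within the CD34+ range. No endothelial marker was bright enough to be tested. All 5 tested T cell markers were lower in CD34+ cells. The summed log2 signal of all 6 T cell markers read, tested or not, was 9.08 to 11.32 against 11.66 to 12.63. All 3 tested fibroblast markers were higher, as were 3 of 6 tested myeloid markers. The sum of all 6 fibroblast markers read, tested or not, was 11.59 to 13.09 against 8.93 to 9.74. The 3-prime to 5-prime actin ratio, taken from control probe sets at both ends of the transcript and higher where RNA is shorter, was 5.25, 4.56, 3.97, 2.91 and 3.06 (log2) on CD34+ arrays 1 to 5 and 2.19 to 2.76 on CD34- arrays. CD34+ array 1 also stood apart from the other CD34+ arrays, with a median correlation of 0.887 with them against 0.935 to 0.945 for the others.

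Arrays of a fraction may not all come from separate mice. The Y-linked gene Eif2s3y had a log2 signal of 10.54 and 10.68 on CD34+ arrays 2 and 3 and of 10.93 and 11.07 on CD34- arrays 3 and 4. It lay between 8.02 and 8.47 on CD34+ arrays 1, 4 and 5, at 9.20 and 9.25 on CD34- arrays 1 and 2, and at 7.79 and 8.15 on CD34- arrays 5 and 6. Neighbouring arrays therefore had like values of this gene, although not of every gene (Rad23b and Psma4, given below). A Y-linked gene can also read alike in different mice of the same sex, so these values do not show that arrays share mice. The labels do not say which arrays share mice, so the p-values measure the spread between these arrays, which may be partly technical and would then be too small.

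As a group, the proteasome genes differed little between the fractions. In limma fits over all 10916 tested genes, 2 of 37 proteasome genes were higher in CD34+ cells, 6 were lower and 29 were not called at an adjusted p under 0.05. That is 21.6% of the proteasome genes, against 24.7% of all genes tested (12.4% higher and 12.3% lower), so their share of called genes was no larger than the background. The median log2 difference, CD34+ minus CD34-, was -0.09, against -0.00 over all genes tested, and the median size of the difference without its sign was 0.26 against 0.32. The proteasome genes were also brighter, with a median log2 signal of 11.53 against 9.52 for all genes tested. Over the 7753 genes at least as bright as the dimmest tested proteasome gene, the median difference was -0.07. Sizes of difference and shares of genes were not compared at like brightness. The fractions did not overlap in 3 genes that lay lower, Psma1, Psmd2 and the uncalled Psmc3, and in 1 that lay higher, Psmb3, against 7.37% and 7.64% of all genes. On its brightest probe set, none of the 37 tested proteasome genes reached a 2-fold difference in either direction, while 7.76% of all genes tested did. Against the CD34- mean, the median of the 37 genes was -0.09, -0.15, 0.00, -0.08 and -0.06 on CD34+ arrays 1 to 5 and -0.11 to 0.08 on CD34- arrays, so the fractions overlapped. In these bulk samples, fewer cells of a type and less RNA per cell cannot be told apart. The split of the calls moved with the scaling. After quantile normalization 3 were lower and 2 higher (12% and 8.9% of all genes), and with the medians of all probe sets made equal, which moved the median difference of all genes tested to -0.48, 25 were lower and limma called none higher (47.7% and 3.63% of all genes). With the alike arrays above averaged, a step chosen after the values had been seen, which left 3 samples in each fraction, limma called no proteasome gene (7 lower and 2 higher at an unadjusted p under 0.05), against 1.15% of all genes called lower and 2.08% higher. The smallest limma adjusted p among them was 0.069, that of Psmd2. With the set of alike arrays also taken as a block none was called, against 1.99% lower and 3.44% higher. Without CD34+ arrays 1 and 2, 5 were lower and 1 higher, against 8.31% and 8.14%. Once the actin ratio was a covariate, limma called no proteasome gene either (5 lower and none higher at an unadjusted p under 0.05), against 0.275% of all genes lower and 0.879% higher. Every CD34+ array had a higher actin ratio than every CD34- array, so fits with this covariate cannot separate RNA length from the fraction. A lost call or smaller difference in such a fit does not assign the difference to either. The exact rank-sum test called 6 lower and 1 higher, against 10.1% and 9.95% of all genes.

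**Figure D1:**
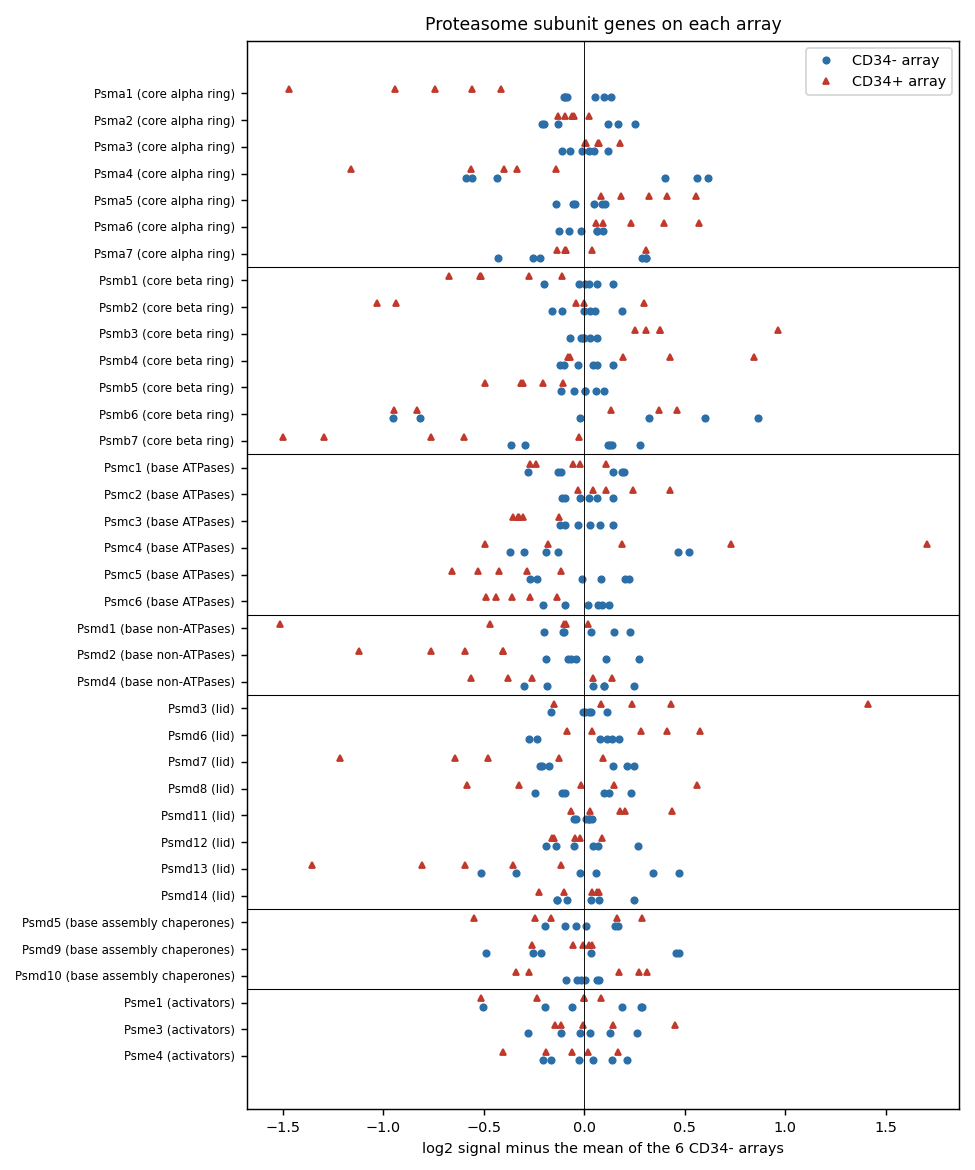
Log2 signal of each of the 37 tested proteasome genes on every array, minus the mean of the 6 CD34- arrays (x axis), with genes grouped by role (y axis); circles are CD34- arrays and triangles CD34+ arrays. Psma1 and Psmd2 lie below all CD34- arrays on every CD34+ array, Psmb3 lies above, and most other genes overlap.

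The 3 called genes whose fractions did not overlap are shown here with another called gene, Psmc6, by the bases upstream of their RefSeq start, 5′ to 3′ on the strand of the gene, to show what precedes genes that moved in opposite directions. Capitals mark CCAAT, the core of the NF-Y box, and TGACNNNGC, the core of the antioxidant response element that the transcription factors Nfe2l1 and Nfe2l2 can bind, each on either strand. The stretches are 250 bases long in GRCm38.p6: Psma1 chr7:114276117-114276366 (minus strand), Psmd2 chr16:20651402-20651651 (plus strand), Psmb3 chr11:97703184-97703433 (plus strand) and Psmc6 chr14:45329574-45329823 (plus strand).
Psma1: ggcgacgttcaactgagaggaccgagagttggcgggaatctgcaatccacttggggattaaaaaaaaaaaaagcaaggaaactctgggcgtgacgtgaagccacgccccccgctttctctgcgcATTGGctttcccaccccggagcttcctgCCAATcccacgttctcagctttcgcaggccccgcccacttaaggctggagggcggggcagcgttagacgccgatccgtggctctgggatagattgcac
Psmd2: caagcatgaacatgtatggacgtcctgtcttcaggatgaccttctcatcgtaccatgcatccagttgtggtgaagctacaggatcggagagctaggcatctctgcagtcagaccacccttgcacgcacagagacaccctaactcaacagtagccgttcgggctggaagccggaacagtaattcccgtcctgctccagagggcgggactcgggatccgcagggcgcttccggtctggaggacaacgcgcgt
Psmb3: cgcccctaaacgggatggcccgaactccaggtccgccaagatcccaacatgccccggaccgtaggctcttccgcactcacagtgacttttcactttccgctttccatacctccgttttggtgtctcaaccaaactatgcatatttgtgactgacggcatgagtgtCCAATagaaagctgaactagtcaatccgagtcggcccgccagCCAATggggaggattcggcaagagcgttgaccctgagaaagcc
Psmc6: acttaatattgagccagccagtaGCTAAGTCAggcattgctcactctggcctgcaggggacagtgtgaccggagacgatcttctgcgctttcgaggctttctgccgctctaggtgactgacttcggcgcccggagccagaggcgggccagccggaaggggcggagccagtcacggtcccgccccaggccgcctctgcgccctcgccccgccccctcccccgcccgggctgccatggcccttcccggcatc
Psma1, which was lower, and Psmb3, which was higher, each held 2 CCAAT matches in this window. Psmd2 held neither sequence, and Psmc6 held 1 match to TGACNNNGC. Psmc6, whose fractions overlapped, was the only called gene in which a match to TGACNNNGC was found. RefSeq upstream stretches were matched for 31 of the 38 genes. CCAAT was in 12 of them (38.7%), against 34.5% of 27025 genes, and TGACNNNGC in 5 (16.1%), against 10.2%. The median log2 difference was -0.16 for the 5 genes with TGACNNNGC and -0.04 for the 26 without, and 0.02 for the 12 genes with CCAAT and -0.10 for the 19 without. These are matches of letters and not measured binding.

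In the alpha ring of the core, 1 of 7 tested genes was lower, 1 was higher and 5 were not called, with a median difference of 0.00. Psma1, a subunit of that ring, had a log2 signal of 11.14, 11.66, 11.86, 12.04 and 12.19 on CD34+ arrays 1 to 5 and of 12.50 to 12.74 (median 12.59) on CD34- arrays. The fractions did not overlap. Psma1 was 1.77-fold lower in CD34+ cells (log2 difference -0.82, SE 0.16, limma adjusted p = 0.00313). Its signal was lowest on CD34+ array 1, where the actin ratio was highest, and highest on arrays 4 and 5, where the ratio was lowest. Once that ratio was in the model its difference was -0.27, and without CD34+ arrays 1 and 2 it was -0.57 (limma adjusted p = 0.00444). The part of RNA length in the difference of Psma1 was not tested beyond these values, and cannot be told apart from that of the fraction. Psma5 moved the opposite way. Its signal was 13.93, 13.70, 13.78, 13.46 and 13.55 on CD34+ arrays and 13.23 to 13.48 (median 13.38) on CD34- arrays. The fractions overlapped through CD34+ array 4 alone, and the difference was 0.31 (SE 0.11, limma adjusted p = 0.0442). Psma5 kept no call when any of 9 arrays was removed (highest limma adjusted p = 0.0894), and the difference was -0.17 with equal medians. Psma7 had the largest p of the ring. It read 11.74, 11.75, 12.14, 11.70 and 11.87 on CD34+ arrays and 11.41 to 12.15 on CD34- arrays, with a difference of 0.00 (95% interval -0.34 to 0.35). Of the uncalled genes, Psma2, Psma3 and Psma6 differed by -0.06, 0.07 and 0.27, and Psma4 by -0.52 with a wide SE of 0.26. Psma8, the alpha subunit of the spermatogenic proteasome, was dim, at 1.17 to 6.56 on CD34+ arrays and 0.97 to 4.55 on CD34- arrays, and was not tested.

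In the beta ring 2 of 7 genes were lower, 1 was higher and 4 were not called, and the median difference was -0.28. Psmb7, the trypsin-like catalytic subunit, read 10.79, 11.49, 10.59, 12.06 and 11.32 on CD34+ arrays and 11.72 to 12.36 (median 12.21) on CD34- arrays. Only CD34+ array 4 reached the CD34- range. Psmb7 was 1.78-fold lower (difference -0.84, SE 0.23, limma adjusted p = 0.0177), with a limma adjusted p of 0.0532 without CD34+ arrays 1 and 2. Once the actin ratio was in the model its difference was -0.33 (limma adjusted p = 0.707). Psmb5, the chymotrypsin-like subunit, read 12.09, 12.29, 12.19, 11.90 and 12.08 against 12.28 to 12.49 (median 12.40), and narrowly missed the call (difference -0.28, 95% interval -0.50 to -0.07, limma adjusted p = 0.0527). Psmb6, the caspase-like subunit, had a difference of -0.16 (95% interval -0.92 to 0.60). Its signal followed the neighbouring arrays more than the fraction, with 11.27, 10.94, 11.18, 9.86 and 9.98 on CD34+ arrays 1 to 5 and 11.67, 11.41, 11.13, 10.79, 9.99 and 9.86 on CD34- arrays 1 to 6. Both fractions were low on their last 2 arrays. The catalytic subunits were thus not called together.

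The other beta genes are structural. Psmb3 read 14.03, 13.45, 13.32, 13.38 and 13.45 on CD34+ arrays and 13.00 to 13.14 (median 13.07) on CD34- arrays, with no overlap. It was 1.37-fold higher (difference 0.45, SE 0.12, limma adjusted p = 0.0181), with a difference of 0.31 without CD34+ arrays 1 and 2, of 0.15 with the actin ratio in the model (limma adjusted p = 0.738) and of -0.03 with equal medians. Psmb1 was lower (-0.42, SE 0.12, limma adjusted p = 0.0244), but lost its call on leaving out any of 3 arrays (highest limma adjusted p = 0.0553). Psmb2 and Psmb4 differed by -0.34 and 0.26 and were not called.

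**Figure D2:**
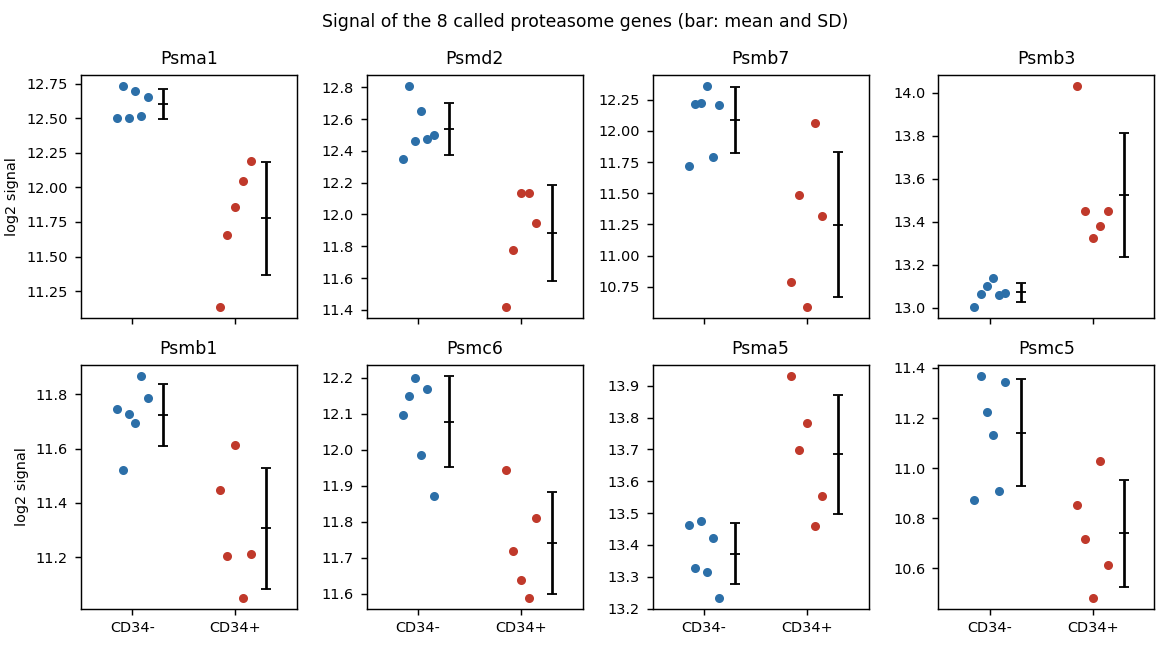
Log2 signal (y axis, a scale of its own in each panel) of the 8 called proteasome genes on the 6 CD34- and 5 CD34+ arrays (points), with the mean and SD of each fraction beside them. Psma1, Psmd2 and Psmb3 do not overlap between the fractions, and the other 5 genes do.

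In the base of the cap, 2 of 6 ATPase genes and 1 of 3 other genes were lower, none was higher and 6 were not called. Psmd2, the scaffold on which ubiquitin shuttles dock, read 11.42, 11.78, 12.13, 12.14 and 11.95 on CD34+ arrays and 12.35 to 12.81 (median 12.49) on CD34- arrays, with no overlap. It was 1.58-fold lower (difference -0.66, SE 0.14, limma adjusted p = 0.00546). Its difference was -0.30 once the actin ratio was in the model. Psmd1, the other large scaffold of the base, read 10.20 on CD34+ array 1, 11.25 on array 2 and 11.62 to 11.74 on arrays 3 to 5, against 11.52 to 11.95 (median 11.68) on CD34- arrays. Only the first 2 CD34+ arrays were below the CD34- range, and its difference of -0.43 (limma adjusted p = 0.175) was -0.06 without them. Psmd4, a ubiquitin receptor, read 10.89, 11.31, 11.40, 11.00 and 10.70 against 10.96 to 11.51 and differed by -0.20 (95% interval -0.52 to 0.12).

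The ATPase genes Psmc6 and Psmc5 were each called lower by a small amount. Psmc6 read 11.94, 11.72, 11.64, 11.59 and 11.81 on CD34+ arrays and 11.87 to 12.20 (median 12.12) on CD34- arrays, so 1 CD34+ array reached the CD34- range. Its difference was -0.34 (SE 0.11, limma adjusted p = 0.0357). Psmc5 read 10.86, 10.72, 10.48, 11.03 and 10.61 against 10.87 to 11.37 (median 11.18), a difference of -0.40 (SE 0.14, limma adjusted p = 0.0459). Their calls were lost on leaving out any of 8 and any of 7 arrays. Psmc1, with the largest p of the ring, read 10.78, 10.81, 11.15, 10.99 and 11.03 against 10.77 to 11.24 and differed by -0.10 (95% interval -0.37 to 0.18). Psmc2, Psmc3 and Psmc4 were not called, with differences of 0.16, -0.29 and 0.39. Psmc3 did not overlap between the fractions in spite of that (11.03 to 11.26 against 11.26 to 11.52, limma adjusted p = 0.0532).

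None of the 8 lid genes was called by limma or by the exact rank-sum test, at a median difference of -0.04. At an unadjusted p under 0.05, limma gave 2 lower and none higher. Psmd14, the lid's deubiquitinase, differed by -0.03 (95% interval -0.26 to 0.20). Psmd13 came nearest to a call, reading 9.51, 9.06, 9.75, 9.28 and 8.51 on CD34+ arrays and 9.35 to 10.34 (median 9.89) on CD34- arrays (difference -0.65, limma adjusted p = 0.0513). Psmd7 read 8.61, 9.70, 9.92, 9.18 and 9.34 against 9.60 to 10.07 (median 9.81), a difference of -0.47 (limma adjusted p = 0.106). Psmd8 had the largest p, at 10.90, 10.16, 11.30, 10.42 and 10.73 against 10.50 to 10.98. The fractions overlapped in all 8. Psmd3 and Psmd6 differed by 0.40 and 0.24, and Psmd11 and Psmd12 by 0.16 and -0.06.

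Psmd5, Psmd9 and Psmd10 carry subunit names but encode chaperones that assemble the base, and none of these was called by limma, also at an unadjusted p under 0.05. Psmd5 read 10.76, 10.05, 10.89, 10.44 and 10.36 against 10.41 to 10.77, Psmd9 8.48, 8.22, 8.51, 8.52 and 8.43 against 7.99 to 8.95, and Psmd10 8.97, 9.58, 9.03, 9.62 and 9.48 against 9.22 to 9.38. Their differences were -0.10, -0.05 and 0.03. The activators were not called either, adjusted or not. Psme1, a subunit of the interferon-inducible activator, read 10.92, 11.20, 11.43, 11.43 and 11.52 against 10.93 to 11.72 (difference -0.13, 95% interval -0.48 to 0.22). Psme3, the nuclear activator, read 9.07, 9.53, 8.96, 9.22 and 8.94 against 8.80 to 9.34 and differed by 0.07 on its brightest probe set. Psme4, an activator with a role in degrading histones, read 12.02, 11.81, 12.38, 12.23 and 12.15 against 12.01 to 12.42 (difference -0.09). Psme2 shares its probe set with Psme2b and was left out by the rule.

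Missing the call does not show that a gene was alike in both fractions. Of the 29 uncalled genes, 20 had a 95% interval of the difference within 1.5-fold either way and 26 within 2-fold. Differences larger than these were outside the intervals of those genes.

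**Figure D3:**
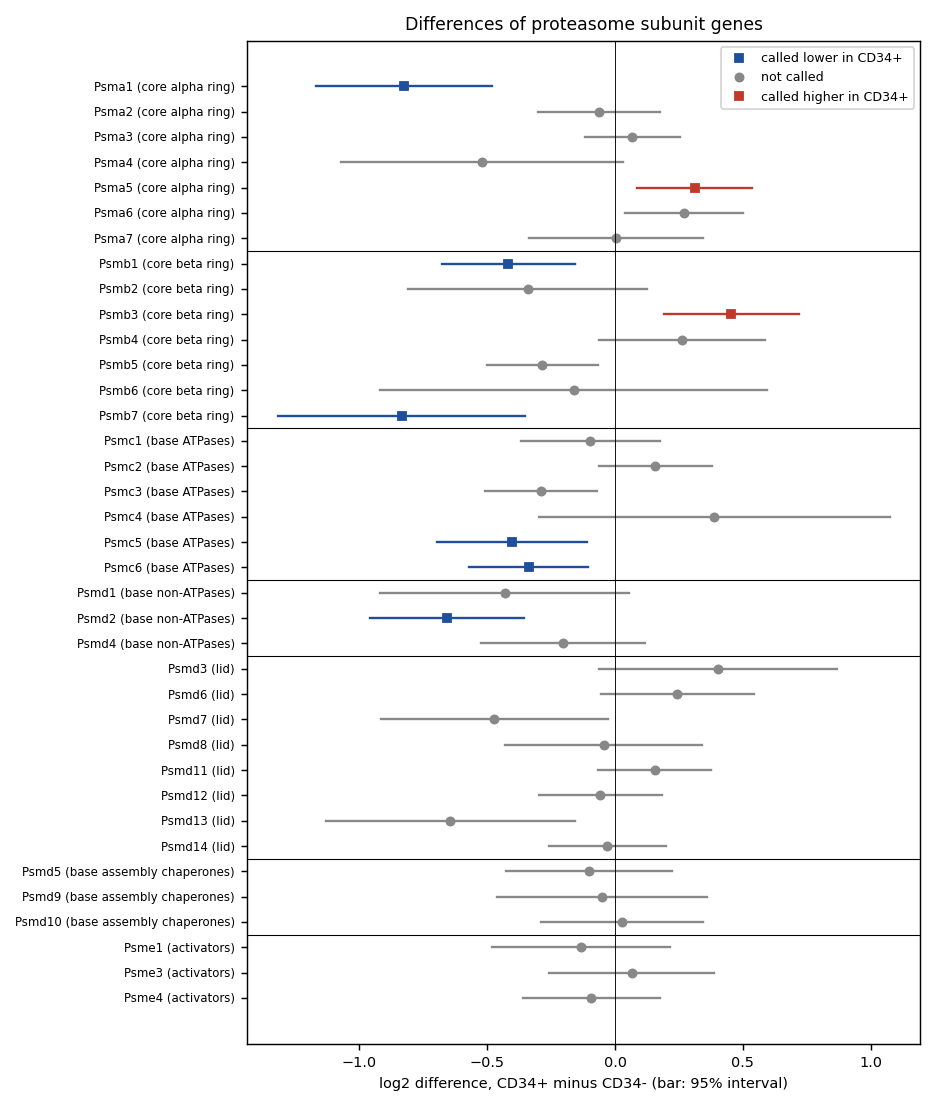
Log2 difference between CD34+ and CD34- arrays (x axis) of the 37 tested proteasome genes by role (y axis), with bars for the 95% interval; squares are genes called by limma and circles are not called. Differences run from -0.84 for Psmb7 to 0.45 for Psmb3.

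What was read for a gene depended on the probe set. Of the 37 genes, 19 had another tested probe set, and the brightest and the next brightest pointed in opposite directions in 14 of them. The brightest was positive and the next negative in 10 genes (52.6%, against 18.4% of 5297 genes with another tested probe set), and the reverse held in 4 (21.1%, against 20.1%). The difference between the 2 probe sets within an array changed between the fractions in 7 of 19 genes (limma, adjusted over 5297 genes), against 14.4% of all such genes. Neither gene called higher had a second probe set called. The next probe set of Psma5 differed by -0.11 and that of Psmb3 by -0.10, neither called, and the change of the gap was not called for either (limma adjusted p = 0.0952 and 0.0549). For Psme3 the next probe set was lower (-1.27, limma adjusted p = 5.85e-04) while the brightest differed by 0.07, and the gap changed by 1.33 (SE 0.23, limma adjusted p = 0.00821). On the next probe set Psme4 was also lower (-0.70, limma adjusted p = 0.0123), against -0.09 on the brightest. Psmb4, Psmc2, Psmd4 and Psmd13 had a next probe set called lower (-0.45, -0.38, -0.55 and -0.70) while their brightest was not called, and Psmd13 had yet another called higher (0.91). Of the 3 genes called lower with another tested probe set, Psma1, Psmb1 and Psmc6, none had a second one called, and in Psma1 and Psmb1 the next differed by 0.25 and 0.60. Once the actin ratio was a covariate, limma called none of the 19 gap changes and 1 of 5297. Leaving out 1 array gave 2 to 6 called, and quantile normalization gave 2. This comparison was added after the values had been seen.

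**Figure D4:**
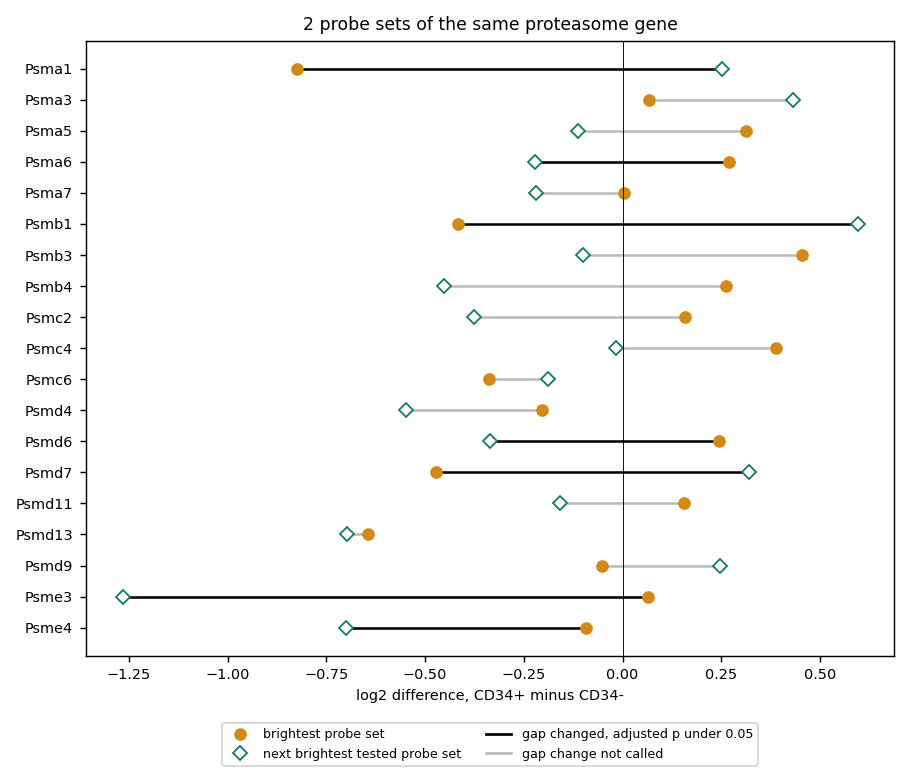
Log2 difference between CD34+ and CD34- arrays (x axis) on the brightest (filled circle) and the next brightest tested probe set (open diamond) of 19 proteasome genes (y axis). A black line marks a gene whose gap between both changed at an adjusted p under 0.05, as in Psme3 and Psma1, and in 14 genes the symbols lie on opposite sides of 0.

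Among genes that work with the proteasome, 9 of 29 tested were lower in CD34+ cells and limma called none higher (2 higher at an unadjusted p under 0.05, and none by the exact rank-sum test). That is a share of 31.0% lower, against 12.3% of all genes tested, and none higher, against 12.4%. In either direction the background was 24.7%. The median difference of the 29 genes was -0.27. With the actin ratio in the model limma called none of the 29 (8 lower and none higher at an unadjusted p under 0.05). The called genes include factors that carry ubiquitin-tagged proteins to the cap. Ubqln1, a ubiquilin shuttle, read 11.82, 11.79, 11.79, 12.36 and 12.29 on CD34+ arrays and 12.70 to 13.18 (median 13.11) on CD34- arrays, with no overlap. It was 1.97-fold lower (difference -0.98, SE 0.15, limma adjusted p = 6.42e-04), and differed by -0.62 with the actin ratio in the model (limma adjusted p = 0.182). The other tested probe set of Ubqln1 was not called (-0.46, limma adjusted p = 0.398). Rad23b, another shuttle, read 9.30, 10.09, 9.81, 10.33 and 9.91 against 10.48 to 11.46 (median 11.01), again with no overlap, and was 2.13-fold lower (difference -1.09, SE 0.23, limma adjusted p = 0.00453). With the actin ratio in the model it differed by -0.77 (limma adjusted p = 0.362). The other tested probe sets of Rad23b were not called (0.35, 0.14 and -0.17). Usp14, a deubiquitinase of the base, differed by -0.63 (limma adjusted p = 0.0119). Of its other probe sets 1 was called lower (-1.01, limma adjusted p = 0.0125), 1 was called higher (0.88, limma adjusted p = 0.0127) and 1 was not called (-0.13), so its direction depended on the probe set.

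Nfe2l1, the transcription factor that raises proteasome genes when proteasome activity falls, was lower as well. It read 9.69, 10.41, 10.05, 10.29 and 9.77 on CD34+ arrays and 10.40 to 11.26 (median 10.77) on CD34- arrays, overlapping by 1 CD34+ array (difference -0.75, SE 0.19, limma adjusted p = 0.0117). Ngly1, the enzyme that removes sugar chains from Nfe2l1 on its way to activation, read 11.16, 10.93, 11.18, 11.01 and 11.05 against 11.46 to 11.74 with no overlap (difference -0.58, SE 0.10, limma adjusted p = 0.00211). Nfe2l2, the related antioxidant factor, differed by -0.33 and was not called. With the actin ratio as a covariate Nfe2l1 and Ngly1 differed by -0.74 and -0.63, close to the values without it, although neither was called in that fit. Nsfl1c, a cofactor of the p97 segregase, was lower with no overlap (-0.73, SE 0.13, limma adjusted p = 0.00181), while p97 itself, Vcp, differed by -0.18 and was not called. Of the assembly factors Psmg2 was lower (-0.63, limma adjusted p = 0.0112), also on another probe set (-0.60, limma adjusted p = 0.0419), and Pomp, Psmg1, Psmg3, Psmg4 and the inhibitor Psmf1 were not called. Uba6, a ubiquitin-activating enzyme, differed by -0.51 (limma adjusted p = 0.0291), or by 0.01 once the actin ratio was in the model. With alike arrays averaged 3 genes were called lower, Rad23b, Ubqln1 and Nsfl1c. Rad23b itself was not alike on neighbouring CD34- arrays. It read 10.48 and 11.32 on arrays 1 and 2, 10.70 and 11.39 on arrays 3 and 4, and 10.51 and 11.46 on arrays 5 and 6. Averaging neighbours took that spread out of its test.

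The immunoproteasome subunits take the places of the catalytic beta subunits in immune cells. Psmb8 read 9.97, 10.27, 10.37, 10.26 and 10.19 on CD34+ arrays and 10.70 to 10.90 (median 10.74) on CD34- arrays, with no overlap (difference -0.55, SE 0.11, limma adjusted p = 0.00358). The other tested probe set of Psmb8 was not called (-0.16, limma adjusted p = 0.560). Psmb9 and Psmb10 differed by -0.63 and -0.44 and were not called (limma adjusted p = 0.0576 and 0.1). The difference of Psmb9 came mainly from CD34- arrays 1, 3 and 5, at 11.67, 11.82 and 11.62. On CD34- arrays 2, 4 and 6 it read 10.82, 10.94 and 10.83, within the CD34+ range of 10.01 to 10.96. T cell markers were lower in CD34+ cells, while 3 of 6 tested myeloid markers were higher there. The part of either cell type in these values was not tested. Within an array, the log2 gap Psmb8 minus Psmb5, the subunit whose place it takes, changed by -0.27 in CD34+ cells (log2 gap -1.90 ± 0.19, SD, n = 5, in CD34+ and -1.63 ± 0.09, SD, n = 6, in CD34- samples; exact permutation test over arrays, two-sided, p = 0.0152, adjusted p = 0.0455 over 3 pairs). The fractions overlapped, and without CD34+ arrays 1 and 2 the change was -0.15 (exact permutation adjusted p = 0.214). Leaving out any of 10 of the 11 arrays, all but CD34+ array 4, ended the call (exact permutation adjusted p = 0.0571 to 0.0952), although fewer arrays also allow fewer splits. The gaps of Psmb9 to Psmb6 and of Psmb10 to Psmb7 changed by -0.47 and 0.39 (exact permutation adjusted p = 0.392 for both).

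**Figure D5:**
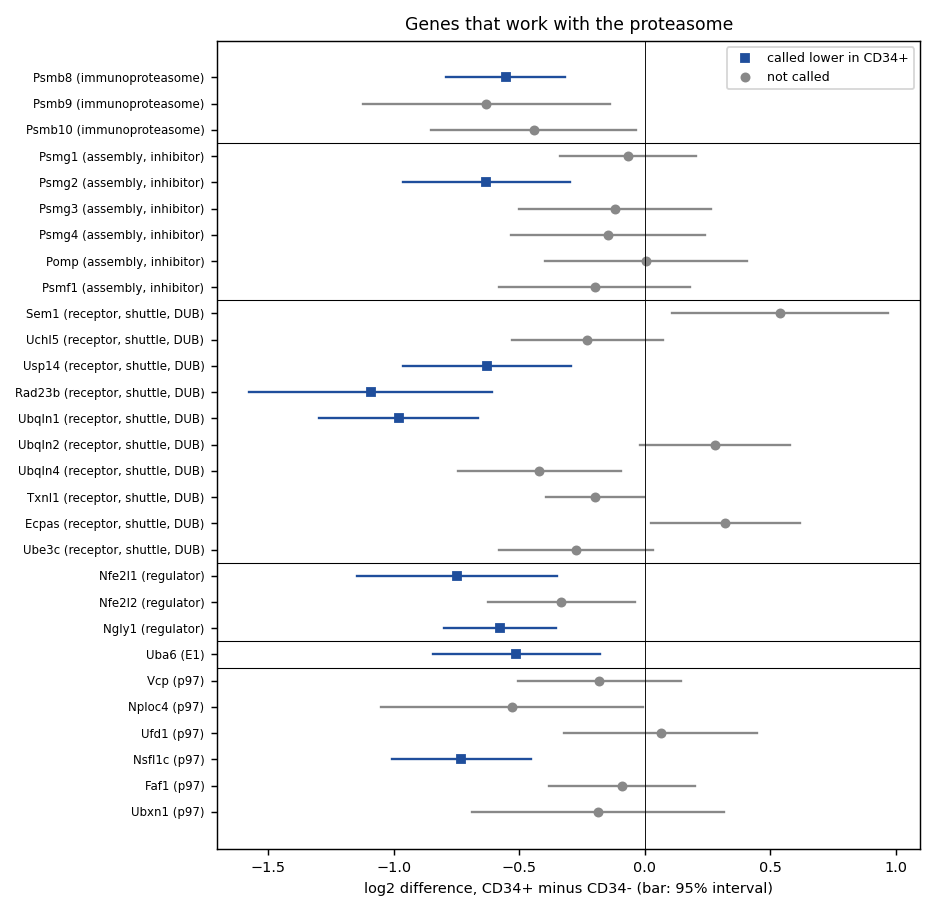
Log2 difference between CD34+ and CD34- arrays (x axis) of 29 genes that work with the proteasome, by group (y axis), with bars for the 95% interval; squares are called lower by limma and circles are not called. Differences run from -1.09 for Rad23b to 0.54 for Sem1, and the 9 called genes all lie below 0.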

How the data were processed

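RNA of 5 CD34+ and 6 CD34- samples was measured on Affymetrix arrays, 1 per sample. The deposited values are log2 signals made by the authors with MAS5, per the submitters' processing notes, with a version not given in the sources used here. A 2% trimmed mean of the linear signal was 500.002 to 500.004 on every array. Of 45101 probe sets, 34945 carried 1 gene symbol in the platform annotation, 932 several, and 9160 none, beside 64 controls. Each of 18193 genes was read from its brightest probe set, and the dimmest 40% were left out. The fractions were compared with limma 3.58.1 in R 4.3.3 (lmFit, eBayes with an intensity trend) on log2 values, with Benjamini-Hochberg adjustment over 10916 genes and a call at an adjusted p under 0.05. The test was tried on simulated data first. It recovered 18 of 50 genes changed 1.5-fold and 40 of 50 changed 2-fold, so changes of the size seen in most proteasome genes can be missed. The number of arrays limits the precision, with a median SE of 0.15 for the proteasome genes.

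Per-array values are given for Cd34, for Psmb5, Psmb6 and Psmb7, for the 2 smallest-p members and the largest-p member of each role, and for Ubqln1, Rad23b, Nfe2l1, Ngly1 and Psmb8. Of each related list, up to 3 called genes with the smallest p are named, and Psmb8, Psmb9 and Psmb10 always; the others of these are given by their difference. Changes within an array between catalytic subunits were tested with an exact permutation test over the 462 splits of the arrays. The members and lists were chosen with earlier results of these data known. Whether replicate numbers pair samples was checked: the correlations of deviations were 0.16, 0.02, 0.19, 0.13 and 0.04 for numbers 1 to 5, not all over 0.1, so they were not taken as pairs. The probe set comparison was first tried with an exact permutation test adjusted within the members, then adjusted over all genes, and then with limma over all 5297 genes, which is reported. The groups of alike arrays were found by looking at the values, after several pairings of arrays, and are no label. RefSeq upstream sequences are from GRCm38.p6.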

Additional observations from a re-analysis of the deposited data

Results flagged for a closer look

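Of 106 groups of arrays checked for a value far from the others, 3 had one, and chance marks about 1 in 20. Psmb3 had a log2 signal of 14.03 on CD34+ array 1, with the nearest CD34+ array at 13.45. Psmc3 read 11.26 on CD34+ array 1, with the nearest at 11.07. Psmb10 read 8.45 on CD34+ array 2, with the nearest at 9.03. CD34+ arrays 1 and 2 had the highest actin ratios, 5.25 and 4.56, and their part in these values was not tested.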

How the results depend on the processing

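The count of proteasome genes called lower was 6, with 12.3% of all genes lower. It was 3 after quantile normalization (all genes 12%), 25 with equal medians (47.7%), 1 with the mean of a gene's probe sets (7.17%), 2 at an adjusted p under 0.01 (4.18%), 3 with the replicate block (9.08%) and 2 with quantile normalization without CD34+ arrays 1 and 2 (9.6%). It was 0 with the actin ratio (0.275%), with quantile normalization and the actin ratio (0.266%), and with alike arrays averaged, without or with their set as a block (1.15% and 1.99%). Leaving out 1 array gave 4 to 8 (8.21% to 13%). The count called higher was 2, with 12.4% of all genes higher. It was 1 with no brightness filter (8.23%), the mean of probe sets (8.91%), no intensity trend (12.4%), array weights (12.4%), the exact rank-sum test (9.95%), the replicate block (9.55%), and without CD34+ arrays 1 and 2 (8.14%, and 7.13% after quantile normalization). It was 0 with equal medians (3.63%), at an adjusted p under 0.01 (5.02%), with the actin ratio (0.879%, and 0.77% after quantile normalization) and with alike arrays averaged, without or with the block (2.08% and 3.44%). Leaving out 1 array gave 1 to 2 (9% to 12.5%). The median log2 difference of proteasome subunits, -0.09, was -0.57 with equal medians and -0.00922 with the actin ratio. It turned to 0.0127 with quantile normalization and the actin ratio and to 0.00129 with quantile normalization without CD34+ arrays 1 and 2, and leaving out 1 array gave -0.16 to -0.0354.

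Of the related genes, the count lower, 9, was 24 with equal medians, 3 with the mean of probe sets, 5 at an adjusted p under 0.01, 0 with the actin ratio (also after quantile normalization), and 3 and 2 with alike arrays averaged without and with their set as a block, against the same shares of all genes lower as above. The count higher, 0, was 1 with array weights and with the replicate block, and 0 to 1 on leaving out 1 array. The change of the log2 gap Psmb8 minus Psmb5, -0.27, was no longer called with an offset of 64 (-0.25), the mean of probe sets (-0.0728), at an adjusted p under 0.01 (-0.27) and without CD34+ arrays 1 and 2 (-0.15), and ran from -0.33 to -0.21 on leaving out 1 array. That of Psmb9 minus Psmb6, not called, turned to 0.11 without CD34+ arrays 1 and 2. The 7 probe set gaps called became 0 with the replicate block.

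Psma3 (-0.41), Psma5 (-0.17), Psmb3 (-0.0257), Psmd11 (-0.32), Psmd10 (-0.45) and Psme3 (-0.41) turned negative with equal medians. Psmb1 turned to 0.17 with the mean of probe sets. Uba6 turned to 0.00696 with the actin ratio and to 0.0528 with quantile normalization and the actin ratio. In 88 further cases over 24 proteasome genes an uncalled difference changed sign and stayed uncalled. Except where a value above shows it, the cause of these changes was not tested. Catalytic pairs were not run with the replicate block or the actin ratio. The alternatives that joined quantile normalization with another choice, those with alike arrays, and those of the probe set gaps were chosen after seeing the data.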

Other observations

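Some proteasome genes split the CD34- arrays among themselves. Psma4 had a log2 signal of 11.98, 12.14 and 12.20 on CD34- arrays 1, 3 and 5 and of 10.99, 11.15 and 11.02 on arrays 2, 4 and 6. Psma7 read 12.12, 12.14 and 12.14 on the first of these and 11.61, 11.58 and 11.41 on the others. Psmd9 read 8.52, 8.94 and 8.95 against 7.99, 8.23 and 8.27. Pomp, the factor that matures the core, read 11.45, 11.22 and 11.27 against 10.71, 10.59 and 10.29. Other genes split the same arrays the opposite way. Rad23b read 10.48, 10.70 and 10.51 on arrays 1, 3 and 5 and 11.32, 11.39 and 11.46 on arrays 2, 4 and 6. Nfe2l1 read 10.46, 10.63 and 10.40 against 11.08, 10.91 and 11.26, and Usp14 10.93, 10.90 and 10.53 against 11.19, 11.27 and 11.29. Arrays 2, 4 and 6 thus gave more of the differences of these 3 genes than arrays 1, 3 and 5. The labels give no difference between these arrays, and the split was noticed in the values.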
